A study of Mus musculus with 4 samples.

Results

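Cells that held a transcript of the Cre transgene were compared with cells from the same chip that held none. Single basal cells came from the dorsal interfollicular epidermis of female *Ivl-CreERT2*/*R26-tdTomato* mice on a C57BL/6J background at postnatal day 57, and every group carried both alleles and had received tamoxifen (10 µg per g by the labels, injected intraperitoneally, whereas the methods of the paper state a higher dose) 2 days earlier. The cells were live, CD49f+, LY6A+ and CD34-, and were sorted as tdTomato-traced (Tom+) or non-traced (Tom-) before capture on Fluidigm C1 chips, 1 chip of 96 wells per library. The sample titles carry 2 number tags, with 1 Tom+ and 1 Tom- library under each. The labels do not say what the tags stand for, and they are called run 1 and run 2 here. The sorted cells came from a pair of mice, so that some of the 4 libraries share an animal, and the sources used here do not say which. Every SD, p-value and fit below takes the 4 libraries as the replicates, measures the spread between them and not between animals, and may therefore give p-values that are too small. Unique molecular identifiers (UMIs) count transcripts, and a well was treated as a cell from 2000 gene UMIs upward, which left 161 of 384 wells. A cell was selected as having Cre by at least 1 UMI in the Cre row of the table, which held for 42 of the 161 cells, and the other 119 had 0. Cells with and without Cre numbered 10 and 25 in Tom+ run 1, 19 and 39 in Tom+ run 2, 2 and 18 among the Tom- cells of run 1 and 11 and 37 among those of run 2. Values for the 4 libraries follow this order wherever they are not named. The Tom- run 1 comparison therefore rested on 2 cells with Cre, whose UMIs summed to 9204, while the other 7 sums of cells ran from 46447 to 182478.

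Involucrin (*Ivl*) is a precursor of the cornified envelope, the protein shell that keratinocytes build late in differentiation, and its promoter is classically described as responsive to AP-1, the Fos and Jun family of transcription factors. In the traced mice the promoter drives CreERT2, a recombinase fused to a modified oestrogen receptor domain. Chaperones of the HSP90 system keep the fusion in the cytoplasm until tamoxifen binds, and recombination then switches on tdTomato for good. The tdTomato mark thus records past recombination, whereas a Cre transcript is a sign of the driver at the time of lysis.

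The 250 bases before the RefSeq start sites of *Ivl* and of 2 genes higher in cells with Cre, *Serpinb2* and *Sbsn*, are shown here. Each holds a match, in capitals, to TGANTCA, a palindrome that reads alike on both strands. This pattern is looser than the AP-1 motif, whose middle base is C or G. The middle base is C in *Ivl* but A in *Serpinb2* and *Sbsn*, so only the *Ivl* window shown holds the AP-1 motif itself. The windows lie at chr3:92573736-92573985 (minus strand), chr1:107511173-107511422 (plus strand) and chr7:30751221-30751470 (plus strand) of GRCm38.p6. For *Serpinb2* this is 1 of its 2 listed windows, both of which hold a match. The sequence shown for *Ivl* is that of the endogenous gene, not of the transgene.
Ivl: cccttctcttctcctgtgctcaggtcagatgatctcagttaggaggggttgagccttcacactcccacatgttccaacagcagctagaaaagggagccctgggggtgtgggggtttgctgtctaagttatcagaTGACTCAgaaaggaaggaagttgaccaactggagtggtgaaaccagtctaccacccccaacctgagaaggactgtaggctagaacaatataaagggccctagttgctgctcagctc
Serpinb2: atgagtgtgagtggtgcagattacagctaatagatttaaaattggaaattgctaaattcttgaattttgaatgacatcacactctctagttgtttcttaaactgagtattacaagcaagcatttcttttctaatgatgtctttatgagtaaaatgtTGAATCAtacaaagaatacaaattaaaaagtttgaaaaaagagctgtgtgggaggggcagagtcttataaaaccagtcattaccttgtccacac
Sbsn: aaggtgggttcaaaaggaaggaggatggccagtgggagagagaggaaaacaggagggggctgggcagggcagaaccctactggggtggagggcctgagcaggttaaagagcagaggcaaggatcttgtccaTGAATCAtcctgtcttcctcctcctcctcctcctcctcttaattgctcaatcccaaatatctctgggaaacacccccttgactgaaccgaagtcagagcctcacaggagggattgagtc
The match to TGANTCA began 116 bases before the start in *Ivl*, 94 in *Serpinb2* and 119 in *Sbsn*. Of all 32851 RefSeq promoter windows of this length, 2217 (6.75%) held at least 1 match. Among the 9 genes that passed the test below, 6 had a window and 2 of these held a match. *Fabp5*, *Ovol1* and *Gm94* had no window. A match of letters is a description and not a measured site.

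Cre transcripts were rare in every library. The kept cells held 20 Cre UMIs in Tom+ run 1, 25 in Tom+ run 2, 3 among the Tom- cells of run 1 and 18 among those of run 2, which is 1.27, 0.819, 0.368 and 0.975 per 10000 gene UMIs (exact Poisson 95% intervals, for counting error only, of 0.777 to 1.96, 0.530 to 1.21, 0.0758 to 1.07 and 0.578 to 1.54). Cre was thus found in both sorts. The mean rate was 1.05 in Tom+ and 0.671 in Tom- libraries, a difference of 0.374 that was within the spread of the libraries (exact two-sided permutation test, p = 0.667, where 0.333 is the smallest that 2 against 2 allows). Within run 1 the difference was 0.904 and within run 2 it was -0.157, so that its direction was not the same in the 2 runs. Of the 42 cells with Cre, 28 had exactly 1 Cre UMI, 9 had 2, 4 had 3 and 1 cell, in Tom+ run 1, had 8. At the edges of the classes, cells with 1 Cre UMI had a median of 5182 gene UMIs, those with at least 2 had 4923.5 and those with 0 had 3696. The lowest kept cell had 2024 gene UMIs and the highest well left out had 1970. The 54 wells left out that had any gene UMI held 3 Cre UMIs, and the 169 wells without gene UMIs held none. Free RNA in the wells cannot be told from a cell's own RNA at counts this low. Rows for 6 fluorescent reporters that these mice do not carry held 0 UMIs. These rows cannot show free Cre RNA, as the mice lack the transcripts, nor can wells in which no gene was counted.

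Cells with Cre were the larger libraries. Their median number of gene UMIs, with against without Cre, was 4476 against 3869 in Tom+ run 1, 6570 against 4248 in Tom+ run 2, 4602 against 3574.5 among the Tom- cells of run 1 and 3530 against 3145 among those of run 2. All 4 libraries went the same way, while the single cells of both classes overlapped in each. The log2 ratio of medians was 0.34 ± 0.21 (SD, n = 4 libraries) and higher in 4 of 4 (exact sign-flip permutation test, two-sided, p = 0.125, the smallest that 4 libraries allow). A cell read more deeply has more chances to show a single Cre UMI, so this difference is partly set by how the classes were chosen. Above the median depth of their library, 35.3%, 44.8%, 20.0% and 29.2% of cells had Cre for the libraries in the order given, and at or below it 22.2%, 20.7%, 0% and 16.7%. In Tom- run 1 the 0 of 10 cells allows a share of up to 30.8% (Clopper-Pearson). The Cre rate per 10000 gene UMIs in the deep against the shallow cells was 1.33 against 1.18, 0.888 against 0.681, 0.578 against 0 (3 against 0 UMIs) and 1.00 against 0.927 in the same order. After each cell was thinned to 2000 UMIs, 6, 6, 2 and 8 cells still had Cre.

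**Figure D1:**
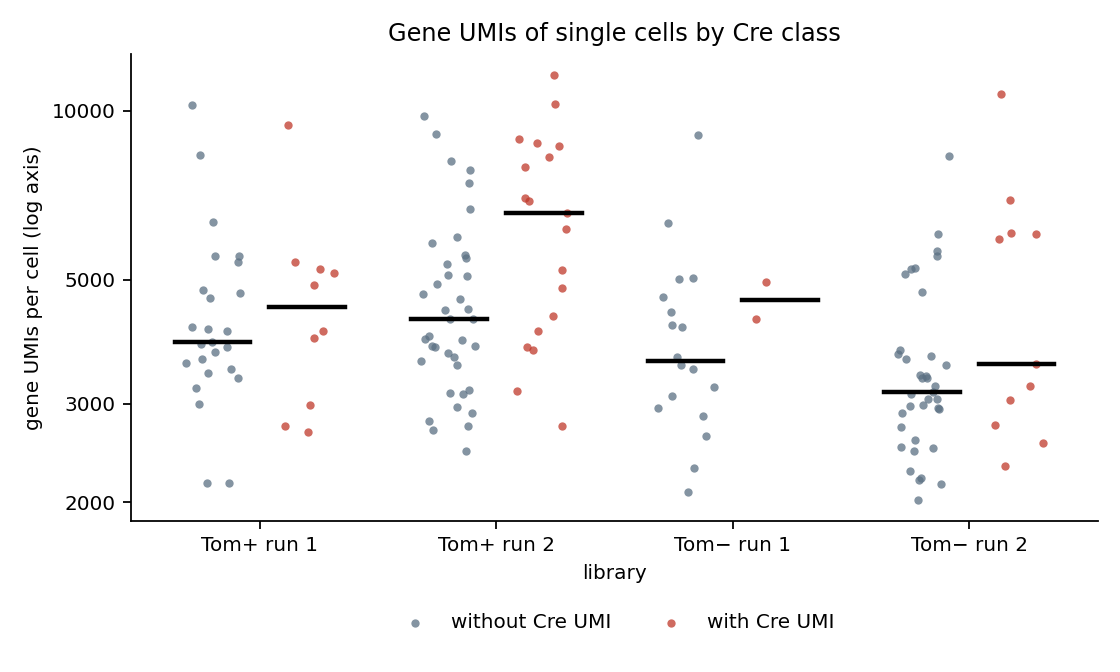
Gene UMIs per cell on a log axis for the cells with (red) and without (grey) Cre in each library, with a black bar at the median. The medians with Cre (3530 to 6570) lie above those without (3145 to 4248) in every library, and the cells of both classes overlap.

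Per spike-in molecule the direction was the same, but this is not a separate observation, since the ratio shares its gene UMIs with the depth above. Median spike-in (ERCC) UMIs with against without Cre were 89.5 against 91, 86 against 94, 94 against 97 and 105 against 106, for the libraries in the order given. Gene UMIs per ERCC UMI, a measure of RNA captured per well, had medians of 54.7 against 46.6, 69.7 against 44.6, 49.3 against 37.9 and 40.7 against 29.3, with a log2 ratio of 0.43 ± 0.17 (SD, n = 4), higher in 4 of 4 (exact sign-flip permutation p = 0.125). Median shares of mitochondrial UMIs were 5.33% to 6.23% with Cre and 5.10% to 7.11% without. At 2000 UMIs per cell, cells with Cre had 24.0 ± 50.8 more detected genes (SD, n = 4; higher in 3 of 4; exact permutation p = 0.50), a difference smaller than its spread. When each cell with Cre was set against the cell without Cre nearest in UMIs in its library, the log2 ratio of gene UMIs was 0.08 ± 0.13 and that of gene UMIs per ERCC UMI 0.23 ± 0.11. With the Cre class itself read at 2000 UMIs per cell, these were 0.04 ± 0.26 (higher in 2 of 4) and 0.07 ± 0.26 (3 of 4), and with a minimum of 5000 UMIs they were 0.14 ± 0.30 and 0.22 ± 0.28 (SD, n = 3; both higher in 2 of 3).

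The kept cells carried the markers of the sort and of the tissue. Of the keratins of the basal layer, *Krt5* and *Krt15* were found in all 161, and *Krt14* in 36 of 42 cells with Cre and 109 of 119 without. *Itga6* (CD49f) was found in 31 of 42 cells with Cre and 95 of 119 without, *Ly6a* in 12 and 33, and *Cd34* in none. At least 3 markers of the infundibulum, the upper hair follicle, were seen in 9 of 42 cells with Cre and 28 of 119 without, and 3 markers of T cells in 1 and 2. The 8 infundibulum markers summed to 3.23 to 13.9 UMIs per 10000 in the sums with Cre and 6.23 to 28.7 in those without, lower with Cre in 4 of 4 libraries, and only *Gata6* was at 0 in cells with Cre. The part of these cells in the gene results was not tested except by leaving out all cells with at least 3 markers of another type.

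*Ivl* itself was almost absent. It was found in 2 cells, with 3 and 2 UMIs, and both were Tom+ run 1 cells with 1 Cre UMI each, so 2 of 42 cells with Cre (4.76%, Clopper-Pearson 0.582 to 16.2%) and 0 of 119 without, which allows a share of up to 3.05% by the same method. Both *Ivl* cells had *Krt10* (68 and 28 UMIs) and no *Krt14* UMI. Loricrin (*Lor*), the main envelope protein of the granular layer, was found in 2 of 42 cells with Cre and 2 of 119 without, with 2 and 3 UMIs. In 40 of the 42 cells with Cre, therefore, no *Ivl* UMI was present beside it. The depth cannot show whether those cells lacked *Ivl*.

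*Krt10*, the first keratin of committed cells, differed between the classes by less than the spread of the libraries. The share of *Krt10*-positive cells (at least 6 UMIs of 2000) was 70.0% with and 72.0% without Cre in Tom+ run 1, 78.9% and 56.4% in Tom+ run 2, 0% and 16.7% in Tom- run 1, and 9.09% and 5.41% in Tom- run 2. The gap between the sorts was far wider than the gap between the classes, which was 1.89 ± 16.2 percentage points (SD, n = 4; higher in 2 of 4; exact permutation p = 0.75). In Tom- run 1 the 0 of 2 cells allows a share of up to 84.2%. The *Krt10* level, as mean ln(UMI + 1) at 2000 UMIs, differed by 0.10 ± 0.23 (exact permutation p = 0.50). The *Krt10* share moved with the choice of cells, from -5.92 ± 31.9 points in cells paired by depth (higher in 1 of 4) to 11.8 ± 21.9 with the class read at 2000 UMIs and 19.0 ± 28.1 with Cre from 2 UMIs (both higher in 3 of 4) and 21.8 ± 14.5 with a minimum of 5000 UMIs (SD, n = 3; higher in 3 of 3; exact permutation p = 0.25, the smallest that 3 allow). The *Krt10* level moved likewise, to 0.37 ± 0.42 with the class read at 2000 UMIs and 0.41 ± 0.15 with a minimum of 5000 UMIs. *Krt14*, the basal keratin, was lower with Cre in 4 of 4 libraries on the same scale, at 1.02 against 1.62, 1.89 against 2.47, 2.55 against 2.99 and 2.99 against 3.10 for the libraries in the order given, a difference of -0.43 ± 0.23 (exact permutation p = 0.125, again the smallest possible). In the cells paired by depth the *Krt14* difference was -0.13 ± 0.31.

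**Figure D2:**
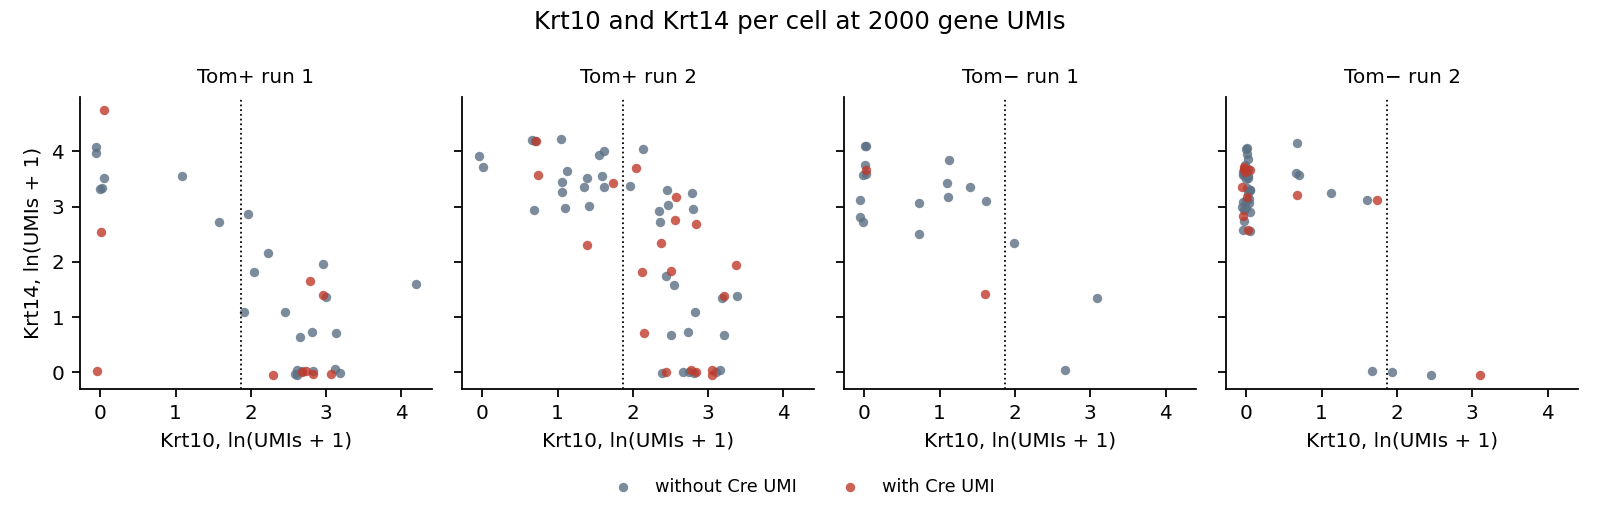
*Krt10* (x axis) against *Krt14* (y axis), both as ln(UMIs + 1) in cells thinned to 2000 gene UMIs and slightly jittered, for each library, with cells with Cre in red, cells without in grey and the *Krt10* cut-off dotted. Cells with Cre lie among those without in every library, with 7 of 10, 15 of 19, 0 of 2 and 1 of 11 of them past the cut-off in Tom+ run 1 and 2 and then Tom- run 1 and 2.

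UMIs were then summed per library and class, and all genes were tested with edgeR's quasi-likelihood test with the library as a term. In such sums, fewer cells with a transcript and fewer copies per cell cannot be told apart. Of 1386 genes tested, 8 were higher with Cre (0.577% of those tested) and 1 was lower (0.0722%) at a Benjamini-Hochberg adjusted p under 0.05, and 68 and 44 had an unadjusted p under 0.05. The median log2 fold change of all genes was -0.04. Those higher were *Serpinb2*, *Fabp5*, *Sbsn*, *Ovol1*, *Gm94*, *Actg1*, *Ndel1* and *Uap1*, and the one lower was *Dusp1*. *Serpinb2*, *Fabp5* and *Sbsn* are on the list of spinous differentiation genes and *Ovol1* is on that of differentiation transcription factors. No gene passed when Tom+ run 1 was left out or when the cells were paired by depth, as given below.

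**Figure D3:**
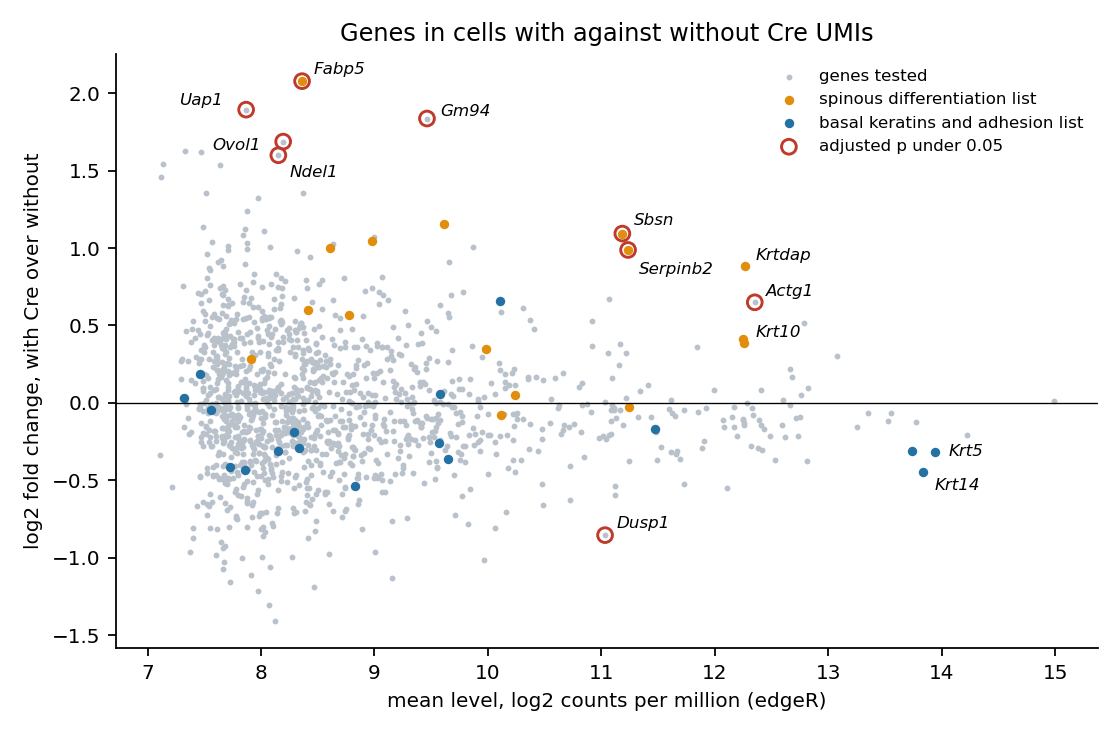
Log2 fold change with over without Cre (y axis) against mean level (x axis) for the 1386 genes tested, with the spinous list in orange, the basal list in blue and genes with an adjusted p under 0.05 ringed. Of the 9 ringed genes 8 lie above 0, and *Krt5* and *Krt14*, among the highest expressed, lie below it without a ring.

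*Serpinb2* encodes a serpin that inhibits plasminogen activators and is made by differentiating keratinocytes. Its gene lies at chr1:107511423-107535478 (plus strand, GRCm38), and its promoter is among those printed above. It had 17.0 UMIs per 10000 gene UMIs with Cre and 7.76 without in Tom+ run 1, 19.8 and 9.15 in Tom+ run 2, 31.5 and 15.3 in Tom- run 1, and 29.6 and 15.7 in Tom- run 2. The level was thus about doubled in each library, and the sums with and without Cre do not overlap, although in Tom- run 1 all 29 UMIs with Cre came from 1 cell. In both classes the level was higher in the Tom- than in the Tom+ libraries, the reverse of *Sbsn* and *Krtdap* below, although all of them are on the spinous list. The log2 fold change of *Serpinb2* was 0.99 ± 0.18 (SE; edgeR adjusted p = 0.00188). *Serpinb2* was detected in 37 of 42 cells with Cre and 80 of 119 without, a comparison not corrected for depth.

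*Fabp5*, the epidermal fatty acid binding protein (chr3:10012548-10016607, plus strand), had 4.52 UMIs per 10000 with Cre and 0.632 without in Tom+ run 1, 6.26 and 1.64 in Tom+ run 2, 2.17 and 0.414 in Tom- run 1, and 1.32 and 0.456 in Tom- run 2. It was higher with Cre in each library, but the Tom- sums rested on 2 and 7 UMIs with Cre and 3 and 6 without. Its log2 fold change of 2.08 ± 0.39 (SE; edgeR adjusted p = 0.00188) was the largest among the genes that passed. Reads of *Fabp5* and *Actg1* can be shared with near-identical pseudogenes, and how they were assigned is not given in the sources used here.

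*Sbsn* encodes suprabasin, a secreted protein of the suprabasal layers (chr7:30751471-30756134, plus strand). It had 47.2 UMIs per 10000 with Cre and 12.9 without in Tom+ run 1, 34.1 and 19.0 in Tom+ run 2, 0 and 5.11 in Tom- run 1, and 4.90 and 1.75 in Tom- run 2. It was higher with Cre in 3 of 4 libraries, and 0 of 9204 UMIs in Tom- run 1 allows up to 3.26 per 10000, which is under the level without Cre there. That limit covers counting error and not the spread between cells. By cell, 0 of 2 allows a share of up to 84.2% (Clopper-Pearson), and 8 of 18 cells without Cre held *Sbsn* there, so a lower level with Cre is not shown. The log2 fold change was 1.09 ± 0.26 (SE; edgeR adjusted p = 0.0316). Single cells carried much of it: 1 cell held 123 of the 219 UMIs with Cre in Tom+ run 1 and 1 cell held 21 of 26 in Tom- run 2. *Sbsn* was detected about as often in the classes, in 28 of 42 cells with Cre and 74 of 119 without, not corrected for depth.

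*Krtdap*, a secreted keratinocyte differentiation protein encoded near *Sbsn* on the same chromosome, followed the same pattern and lay just outside the threshold. It had 81.0 UMIs per 10000 with Cre and 32.9 without in Tom+ run 1, 87.9 and 42.5 in Tom+ run 2, 0 and 8.97 in Tom- run 1, and 9.79 and 4.33 in Tom- run 2. Its log2 fold change was 0.88 ± 0.23 (SE; edgeR adjusted p = 0.0533). The 52 UMIs with Cre in Tom- run 2 were all from 1 cell, and 1 cell held 197 of 376 in Tom+ run 1.

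*Ovol1*, a zinc-finger repressor that acts as progenitors leave the basal state (chr19:5549136-5560646, minus strand), had 2.80 UMIs per 10000 with Cre and 0.632 without in Tom+ run 1, 4.64 and 1.10 in Tom+ run 2, 0 and 1.24 in Tom- run 1, and 2.83 and 0.837 in Tom- run 2. It was higher in 3 of 4 libraries, and in Tom- run 1 the 0 allows up to 3.26 per 10000, which is above the level without Cre. The log2 fold change was 1.69 ± 0.42 (SE; edgeR adjusted p = 0.0422). *Ovol1* was spread over many cells. With Cre, 26 of 42 cells held it (6 of 10, 14 of 19, 0 of 2 and 6 of 11 for the libraries in the order given). Without Cre, 23 of 119 did (3 of 25, 10 of 39, 3 of 18 and 7 of 37). The comparison was not corrected for depth.

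The other genes that rose belong to no list. *Actg1*, cytoplasmic gamma-actin, had 47.8 and 28.3, 34.4 and 26.7, 79.3 and 39.2, and 39.2 and 22.8 UMIs per 10000 with and without Cre for the libraries in the order given, with a log2 fold change of 0.65 ± 0.15 (edgeR adjusted p = 0.0316). *Ndel1*, a partner of the dynein motor, had 4.95 and 0.722, 2.85 and 1.21, 2.17 and 0.967, and 2.45 and 0.989, with a log2 fold change of 1.60 ± 0.41 (adjusted p = 0.0433). Both were higher with Cre in all 4 libraries. For *Actg1*, however, 1 cell held 94 of the 222 UMIs with Cre in Tom+ run 1 and 1 cell held 50 of 73 in Tom- run 1. *Ndel1* in Tom- run 1 rested on 2 UMIs with Cre, both from 1 cell. *Uap1*, an enzyme that makes UDP-N-acetylglucosamine for glycosylation, was also higher in 4 of 4, at 2.15 and 0.812, 1.95 and 1.15, 9.78 and 0.276, and 2.83 and 0.532 (log2 fold change 1.89 ± 0.47, adjusted p = 0.0422), but its Tom- run 1 level was 8 of 9 UMIs from 1 cell. *Gm94* had 12.7 and 3.97, 10.0 and 3.34, 0 and 1.79, and 5.27 and 0.152 (log2 fold change 1.84 ± 0.36, adjusted p = 0.00351). All 28 of its UMIs with Cre in Tom- run 2, and 33 of 59 in Tom+ run 1, were from 1 cell each.

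*Dusp1*, a phosphatase that switches off MAP kinases and is an immediate early gene, was the one that fell. It had 5.60 and 13.8 UMIs per 10000 with and without Cre in Tom+ run 1, 9.60 and 15.0 in Tom+ run 2, 6.52 and 25.0 in Tom- run 1, and 17.0 and 19.1 in Tom- run 2. It was lower with Cre in 4 of 4 libraries, by least in Tom- run 2, and fell by 0.85 ± 0.21 on the log2 scale (SE; edgeR adjusted p = 0.0422). The genes of next lowest p in this direction did not pass: *Fos* had a log2 fold change of -0.55 ± 0.16 (adjusted p = 0.136), *Txnip* -1.13 ± 0.36 (0.186), *S100a10* -0.59 ± 0.19 (0.186), *Tagln2* -0.81 ± 0.26 (0.187) and *Agrn* -1.19 ± 0.39 (0.223). *Fos*, *S100a10*, *Tagln2* and *Agrn* had lower levels with Cre in 4 of 4 libraries and *Txnip* in 3 of 4.

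**Figure D4:**
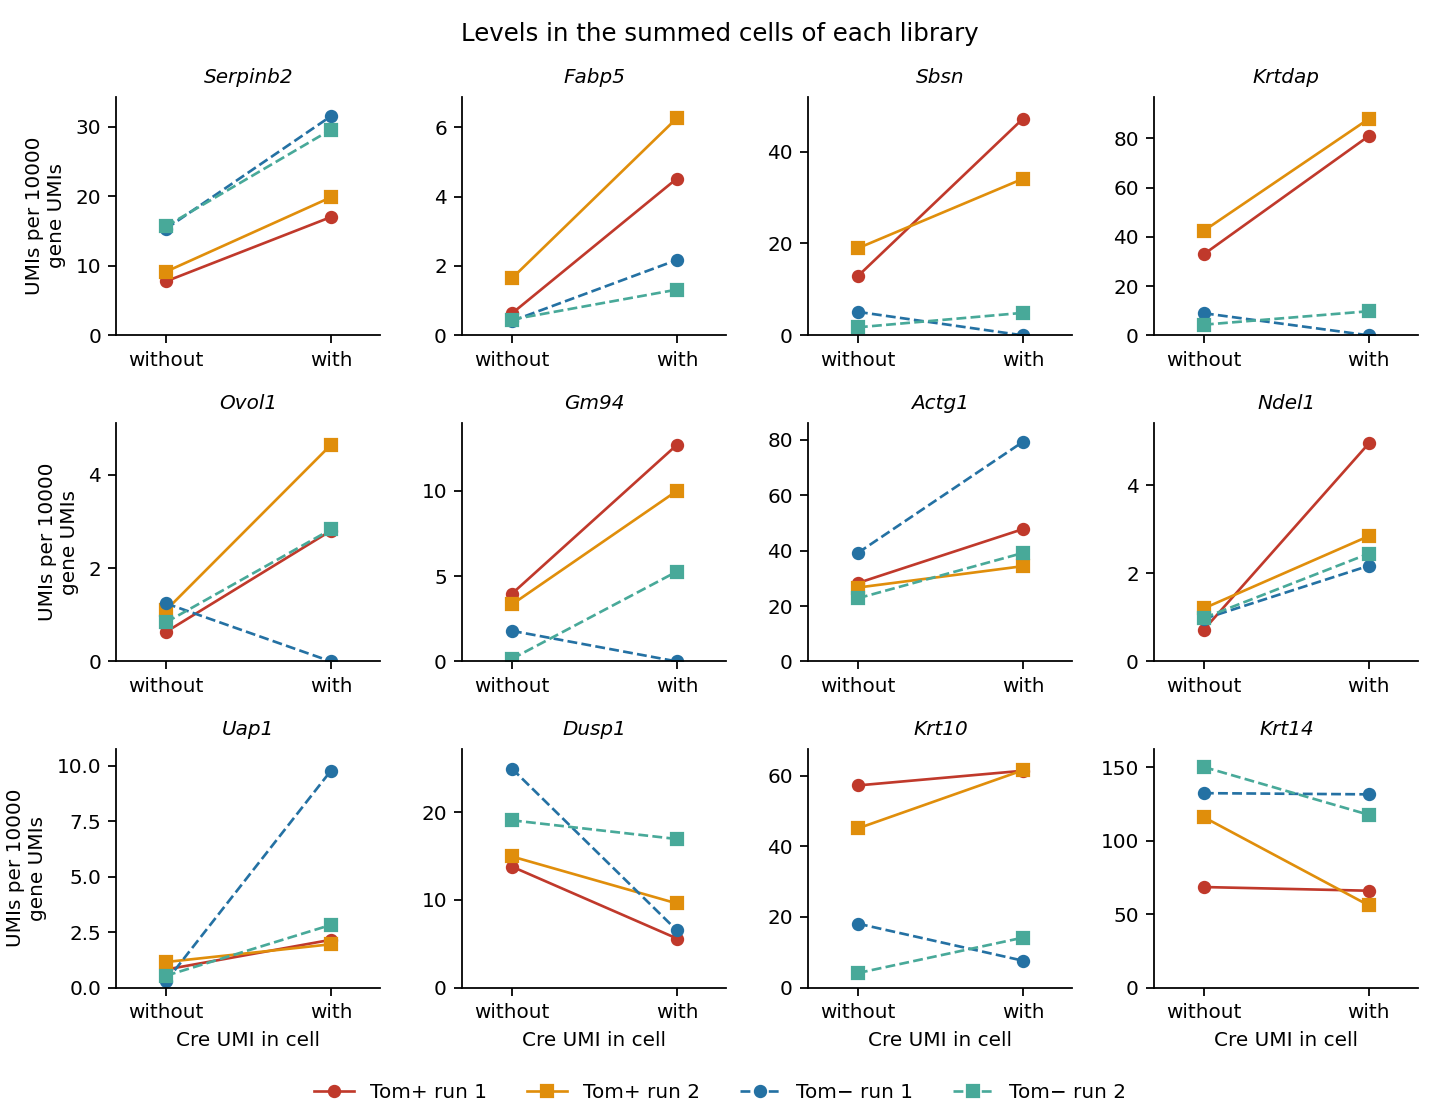
UMIs per 10000 gene UMIs (y axis, from 0) in the summed cells without and with Cre of each library, joined by a line, with Tom+ libraries as solid and Tom- libraries as dashed lines. *Serpinb2* rises in all 4 libraries, *Sbsn*, *Krtdap*, *Ovol1* and *Gm94* are at 0 in the 2 Tom- run 1 cells with Cre, and *Dusp1* is lower with Cre in all 4.

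By list, the median of the spinous differentiation genes lay above that of all genes in 3 of 4 libraries. The lists were chosen with earlier results of these data known, so they are a description and not independent support. Of 25 listed genes 16 were tested, 3 rose, none fell and 13 did not pass, where 0.577% of all genes tested rose. Of the 16, 14 had a positive log2 fold change, and the median was 0.59 against -0.04 for all genes. By library the median of the spinous list was 0.83, 0.61, -1.10 and 1.09, against -0.01, -0.02, -0.34 and -0.03 for all genes, so that Tom- run 1 went the other way. In Tom- run 2, 1 cell held all 52 *Krtdap* UMIs with Cre and 1 cell held 21 of 26 *Sbsn* UMIs. In Tom+ run 1, 1 cell held 197 of 376 *Krtdap* UMIs with Cre and 1 cell held 123 of 219 *Sbsn* UMIs. How far the library medians rest on single cells was not tested. In the fit, the median of the spinous list was 0.29 without the deepest 5% of cells and 0.18 in the Tom- libraries alone. The highest expressed besides *Krtdap* did not pass: *Krt10* had 0.39 ± 0.21 (adjusted p = 0.716), *Dmkn* 0.41 ± 0.17 (0.442) and *Krt1*, the partner of *Krt10*, -0.03 ± 0.20 (0.994). *Mt4*, a metallothionein of stratified epithelia, had -0.08 ± 0.29 (0.983). Of the 23 cornified envelope genes, 21 were in the tables, 9 of these had no UMI and 3 were tested, the envelope scaffold genes *Ppl* (0.37 ± 0.31) and *Evpl* (0.38 ± 0.42), and *Scel* (0.22 ± 0.36), none of which passed.

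Among the basal keratin and adhesion genes, 17 of 22 were tested and none passed, with 13 negative values and a median of -0.29. *Krt14* had a log2 fold change of -0.45 ± 0.15 (adjusted p = 0.223), *Krt5* -0.32 ± 0.14 (0.490), *Krt15* -0.31 ± 0.14 (0.536) and *Col17a1*, a collagen of hemidesmosomes, -0.17 ± 0.17 (0.912). *Krt14* in the sums was 65.9 and 68.4 UMIs per 10000 with and without Cre in Tom+ run 1. It was 55.9 and 115.9 in Tom+ run 2, 131.5 and 132.3 in Tom- run 1, and 117.5 and 150.1 in Tom- run 2. Most of the difference between the sums was thus in run 2. In Tom+ run 1, however, 1 cell held 270 of the 306 *Krt14* UMIs with Cre. There 4 of 10 cells with Cre held *Krt14*, against 20 of 25 without. Per thinned cell, as mean ln(UMI + 1), the *Krt14* difference was -0.60, -0.58, -0.44 and -0.10 for the libraries in the order given. On that scale it was not mainly in run 2. In the cells paired by depth the median of the 9 basal genes tested was -0.10 and that of the 14 spinous genes 0.52, against 0.03 for all genes, and *Krt5* had 0.02 in the sums of thinned cells.

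Of 21 differentiation transcription factors 18 were tested, *Ovol1* rose and 17 did not pass, with 12 positive values and a median of 0.60. By library this median was 0.38, 0.45, -0.38 and 0.25, and it was 0.27 without cells with markers of another type and -0.04, with 3 of 9 values positive, when Cre was called from 2 UMIs. The highest expressed of the list were *Klf4* (-0.04 ± 0.23), *Gata3* (-0.14 ± 0.22), *Id3* (0.71 ± 0.31) and *Trp63*, the p63 factor of basal cells (-0.26 ± 0.28). Of the 12 regulators described for the *Ivl* promoter (AP-1, Sp1, Klf4 and C/EBP), 9 were tested, none passed and the median was 0.03. The AP-1 genes *Jun* (0.03 ± 0.19) and *Fosb* (0.16 ± 0.20) had values near 0, whereas *Fos* was negative, as given above.

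The chaperones that hold steroid receptors showed no shared direction, with 7 of 12 tested, none passing and a median of 0.04. *Hsp90ab1* had -0.03 ± 0.18, *Hsp90aa1* 0.04 ± 0.26, *Hspa8* -0.45 ± 0.25 and *Dnajb1* 0.58 ± 0.27. The p53 target and DNA damage list, included because Cre cuts DNA, had 4 of 24 tested, none passing and a median of 0.21. These were *Cdkn1a* (0.53 ± 0.29), *Perp* (0.22 ± 0.15), *Btg2* (0.20 ± 0.22) and *Gadd45b* (0.06 ± 0.43). By library the median of these 4 genes was 0.65, 0.28, 0.07 and 0.25, in the order given. That of all genes was -0.01, -0.02, -0.34 and -0.03, so the list lay above it in each library. Cell cycle genes were mostly too low to test, with 1 of 43 S phase genes (*Nasp*, -0.18 ± 0.49) and 4 of 54 G2/M genes (*Tubb4b*, *Hmgb2*, *Rangap1* and *Cks2*), none of which passed, at a median of -0.04 for the latter.

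**Figure D5:**
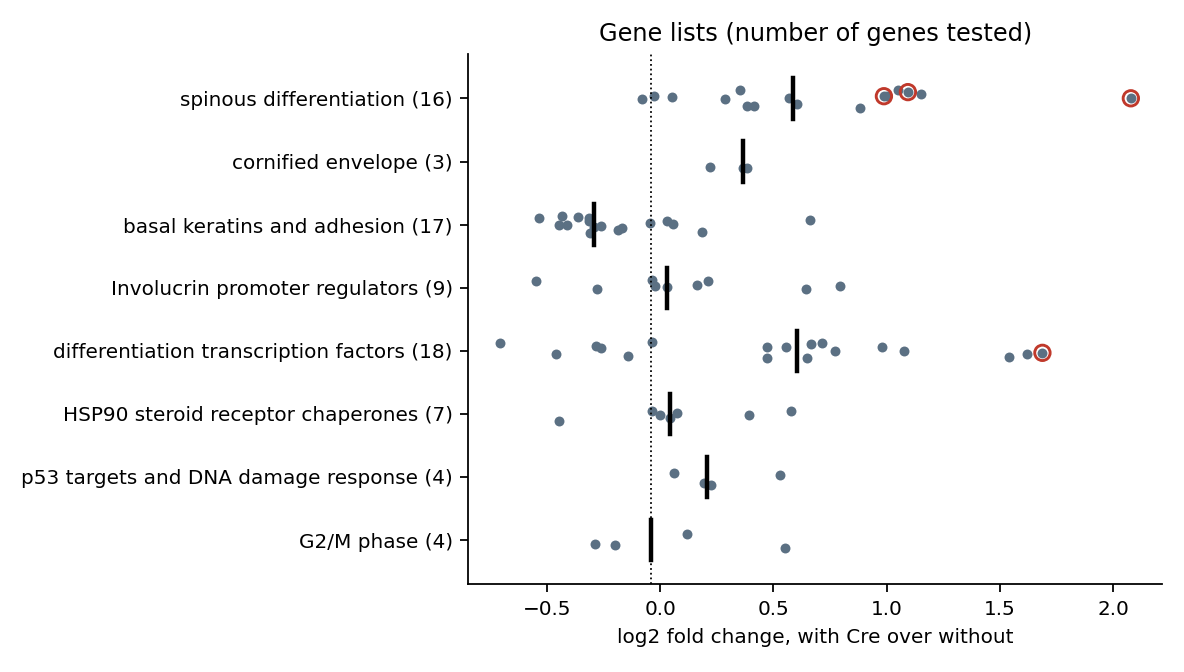
Log2 fold change with over without Cre (x axis) of each tested gene of the lists with more than 1 tested gene, with the list's median as a bar, the median of all genes dotted and genes with an adjusted p under 0.05 ringed. The spinous and transcription factor lists have medians of 0.59 and 0.60, the basal list -0.29 and the others 0.37 or less.

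The calls changed with the cells and libraries used. In the cells paired by depth, which left 42 of the 119 cells without Cre, 719 genes were tested and 0 passed (edgeR; 21 had an unadjusted p under 0.05 and were higher with Cre, and 3 were lower). With Tom- run 1 left out of that pairing, which had 2 cells in each class, 6 were higher and 1 lower of 756, and 3 of the 7 were among the 9 above, *Serpinb2* (1.06), *Sbsn* (1.28) and *Gm94* (2.30), while *Krtdap* (1.77 on the log2 scale) was not. Whether depth or the smaller number of cells moved the calls was not tested. *Serpinb2* had a log2 fold change of 0.69 in the full pairing and *Ovol1* 1.24. With every cell thinned to 2000 UMIs before summing, 8 were higher and 0 lower of 501, of which 3 (*Serpinb2*, at 1.04, *Gm94* and *Actg1*) were among the 9 and 5 (*Krtdap*, *Krt16*, *Sfn*, *Atf3* and *Prnp*) were other genes. Without Tom+ run 1, 0 of 1611 genes passed (53 higher and 28 lower at an unadjusted p under 0.05), with *Serpinb2* at 0.94 and an adjusted p of 0.215. Without cells that showed 3 or more markers of a different cell type, 6 were higher and 1 lower, but the lower one was *Fos*, and *Dusp1*, *Ovol1* and *Ndel1* were not among them.

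Within the Tom+ libraries alone, 19 genes were higher and 8 lower with Cre of 2150 tested, 8 of the 9 genes above among them, and *Krt14* (-0.59), *Krt5* (-0.42) and *Krt15* (-0.49) were lower at adjusted p-values of 0.00592, 0.0462 and 0.0160. Within the Tom- libraries alone 0 of 1046 passed (edgeR; 28 higher and 11 lower at an unadjusted p under 0.05). Whether the difference with Cre was itself unlike in the 2 sorts was tested by an interaction term, which 2 of 1386 genes (0.144%) passed, *Igfbp3* and *Krt17*. *Igfbp3*, an insulin-like growth factor binding protein, had 2.15 and 5.95 UMIs per 10000 with and without Cre in Tom+ run 1, 0.569 and 4.06 in Tom+ run 2, 7.61 and 5.94 in Tom- run 1, and 19.0 and 5.78 in Tom- run 2. It was lower with Cre in both Tom+ and higher in both Tom- libraries, and the log2 fold change with Cre was lower in Tom+ than in Tom- by -3.30 ± 0.62 (SE; edgeR adjusted p = 0.000145). The level with Cre rested on 7 *Igfbp3* UMIs in Tom- run 1, 6 of them from 1 cell. It rested on 10 in Tom+ run 1, 7 of them from 1 cell, and on 7 in Tom+ run 2, found in 6 of 19 cells. *Krt17*, a keratin of hair follicles and stressed epidermis and one of the infundibulum markers, had 1.08 and 3.61, 3.01 and 15.7, 6.52 and 8.56, and 9.04 and 5.70 in the same order (interaction -2.44 ± 0.59, adjusted p = 0.0275). In Tom+ run 2, 1 cell without Cre held 147 of the 287 *Krt17* UMIs. No gene passed the interaction without Tom+ run 2, without Tom- run 1 or without the cells with markers of another type (edgeR; 12 higher and 14 lower, 49 and 41, and 33 and 9 at an unadjusted p under 0.05), 1 passed without Tom+ run 1 and 9 passed without Tom- run 2.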

How the data were processed

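Single cells of 4 libraries (2 Tom+ and 2 Tom-) were analysed. The authors deposited raw UMI counts per gene and well, made by 5-prime STRT chemistry and the same tables list spike-ins and reporters. The submitters' processing notes name mm10 and GRCm38, and the aligner and annotation are not given in the sources used here. Of 24378 gene rows, each was taken as a gene. The tdTomato row, and the DsRed row to which its reads may map, are not reported. No doublet caller was run, and the 5% deepest cells were left out as an alternative.

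The members, lists and tests were chosen with earlier results of these data known. Per-cell values used cells thinned to 2000 UMIs (seed 1), and libraries were compared by exact sign-flip permutation tests. UMIs were summed per library and class (8 sums) and fitted in edgeR 4.0.16 by the quasi-likelihood method (filterByExpr, TMM, a library term, 3 residual degrees of freedom, threshold 0.05) in R 4.3.3. Levels per 10000 are UMIs over all gene UMIs of a sum. The interaction of class and sort used the same sums. Common biological variation was 0.195. Tested on simulated data of this comparison with 1386 genes, 197 calls included 2 false ones, with 95% of 4-fold and 100% of 8-fold changes recovered. The simulation gave all genes the same dispersion and held no sums carried by single cells. It therefore cannot give the rate of false calls in the real sums, nor the recovery of changes under 4-fold. Both classes come from the same chip, so the library is the pairing. Intervals and floors (3 counts) cover counting error only.

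Named genes were up to 10 per direction past the threshold with the same sign in at least 3 of 4 libraries, the genes of lowest p up to 6 where fewer than 5 passed, up to 4 of highest level per list, and single genes that the study follows. Alternatives were other UMI minima, Cre classes, normalizations (DESeq2 1.42.0 size factors), filters and tools (DESeq2, limma 3.58.1), thinning seeds, and each library left out. The fits within 1 sort, without Tom- run 1 in the pairing by depth, and with library totals or paired singletons for scaling were added after the data were seen.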

Additional observations from a re-analysis of the deposited data

Results flagged for a closer look

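The within-library log2 ratio, computed on the scaling of the fit with a prior count of 2, was looked at for a library far from the other 3 in 53 named genes and values. In 6 of them the gap passed Dixon's limit, which chance does in about 1 group in 20. Tom- run 1, with 2 cells with Cre, stood apart for *Krtdap* (-5.38), *Mt4* (-4.96), *Sbsn* (-4.59), *Ovol1* (-2.73) and *Dmkn* (-0.71). The first 4 of these rest on 0 UMIs with Cre, so their size depends on the prior count. Tom+ run 1 stood apart for *Ndel1* (2.45). The contrast with Cre differed between Tom+ and Tom- in the test of the interaction for *Igfbp3* (-3.30 on the log2 scale) and *Krt17* (-2.44).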

How the results depend on the processing

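The 9 genes that passed changed direction in 0 of 196 values under the alternatives in which they were tested, and *Serpinb2* ranged from 0.68 to 1.33 on the log2 scale. The number of genes that passed, 9 in all, was 4 with a minimum of 5000 UMIs, 2 without the 5% deepest cells (1 of them, *Serpinb2*, among the 9), 2 with Cre from 2 UMIs, 1 with the class read at 2000 UMIs, 0 in the cells paired by depth, 2 with the DESeq2 Wald test (*Serpinb2* and *Fabp5*), 32 with limma voom and quality weights (all 9 among them), 1 without a filter on low counts, 27 in Tom+ and 0 in Tom- alone, and 0 to 9 with 1 library left out, the 0 being without Tom+ run 1. Both classes share a library, and with no replicate block 0 genes passed (edgeR; 37 higher and 20 lower at an unadjusted p under 0.05), while a replicate block by run and sort gave 3. The interaction, 2 genes, gave 1 with a minimum of 1000 UMIs, without the deepest cells or with thinned sums, 0 with a minimum of 5000 UMIs, the class at 2000 UMIs, cells paired by depth, no cells with markers of another type, DESeq2 or no filter, and 0 to 9 with 1 library left out. Detected genes reversed to -8.98 with a minimum of 5000 UMIs and -9.87 when paired by depth. The *Krt10*-positive share reversed to -2.56 points without the deepest cells, -5.92 when paired by depth, -4.99 without Tom+ run 2 (-4.99 to 8.07 with 1 library left out) and -1.19 at a cut-off of 1 UMI, and the *Krt10* level to -0.11 when paired by depth. The causes were not tested. Library totals in place of TMM gave 12 higher and 1 lower. The 38 other named genes changed sign in 94 of 869 values. Depth limits the classes, since 28 of 42 cells with Cre rest on 1 UMI.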

Other observations

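*Krt79*, a keratin of the infundibulum and sebaceous duct, was too low to be tested in the main comparison and is named after its values were seen. It had 1 UMI in the cells with Cre and 111 in those without, of which 108 were in 5 Tom+ run 2 cells and 88 in 1 of them. In the fit without a filter on low counts it was the 1 gene that passed.

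*Krt16*, a keratin of activated epidermis, was also chosen after its values were seen. It had 8.40 UMIs per 10000 with Cre and 3.07 without in Tom+ run 1, 11.6 and 4.16 in Tom+ run 2, 6.52 and 7.73 in Tom- run 1, and 7.35 and 3.88 in Tom- run 2, higher in 3 of 4 libraries. Its log2 fold change of 1.01 ± 0.27 did not pass in the main comparison (*Krt16*, edgeR adjusted p = 0.0686), but it passed in 9 of 24 alternatives, among them thinned sums, DESeq2 size factors and the Tom+ libraries alone.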
